A study of Homo sapiens with 4 samples.

Results

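The alpha-arrestin genes TXNIP, ARRDC1, ARRDC2, ARRDC3 and ARRDC4 were followed in HCT116, a long-established human line from a colon cancer. The cells were held for 72 h (3 days) at 1% oxygen (hypoxia) or at 21% oxygen (normoxia). All cells had first been kept without serum for 24 h, so serum withdrawal was common to both groups, and every array came from this 1 line. Each group held 2 arrays, labelled exp A and exp B with the same letters in both groups, and the reported fit did not pair them. Whether these came from separate cultures is not given in the labels, so the p-values rest on a spread between samples that may be technical only. Members were all probe sets that the platform annotation lists for exactly 1 of the 5 genes, which gave 5 of 19775 genes with a probe set of their own, and 8 of the 54675 probe sets: 3 for TXNIP, 2 for ARRDC1 and 1 each for ARRDC2, ARRDC3 and ARRDC4.

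Alpha-arrestins are cytoplasmic adaptors that share the arrestin fold. Most carry short proline and tyrosine motifs in their tail that bind ubiquitin ligases of the NEDD4 family, and through these they steer receptors and nutrient transporters at the cell surface towards ubiquitination, endocytosis and sorting. TXNIP, the thioredoxin-interacting protein, also binds and inhibits thioredoxin and restrains glucose uptake through glucose transporters, and TXNIP and ARRDC4 are known targets of the glucose-sensing transcription factors MondoA and ChREBP with their partner MLX.

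The genes responded in different directions. ARRDC3 rose 9.71-fold in hypoxia, ARRDC4 fell 5.16-fold and ARRDC1 fell 2.94-fold, ARRDC2 was lower without passing the test, and TXNIP gave signals in the range of control probe sets in both groups. Values are MAS5 signals, a linear measure of brightness per probe set, and log2 differences (hypoxia minus normoxia) were taken after adding 23.7 to each signal. The folds come from the same scale, which understates changes of weak probe sets. A probe set was tested where its mean over the 4 arrays reached 97.4 (the median over all probe sets). This admitted 4 of the 8 members. Among those 4, limma called 3 (threshold 0.05 after Benjamini-Hochberg adjustment): ARRDC3 as higher, ARRDC1 and ARRDC4 as lower. Over all 27304 tested probe sets 30.8% were called, 13.7% higher and 17.1% lower. That balance moved with the scaling of the arrays: 3738 probe sets were called higher and 4668 lower as reported, 4585 higher and 3917 lower when scaled to the 75th percentile, and 110 higher and 10150 lower when scaled to the hybridization controls. The median log2 difference was -1.14 over the 4 tested members and 0.05 over all tested probe sets.

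**Figure D1:**
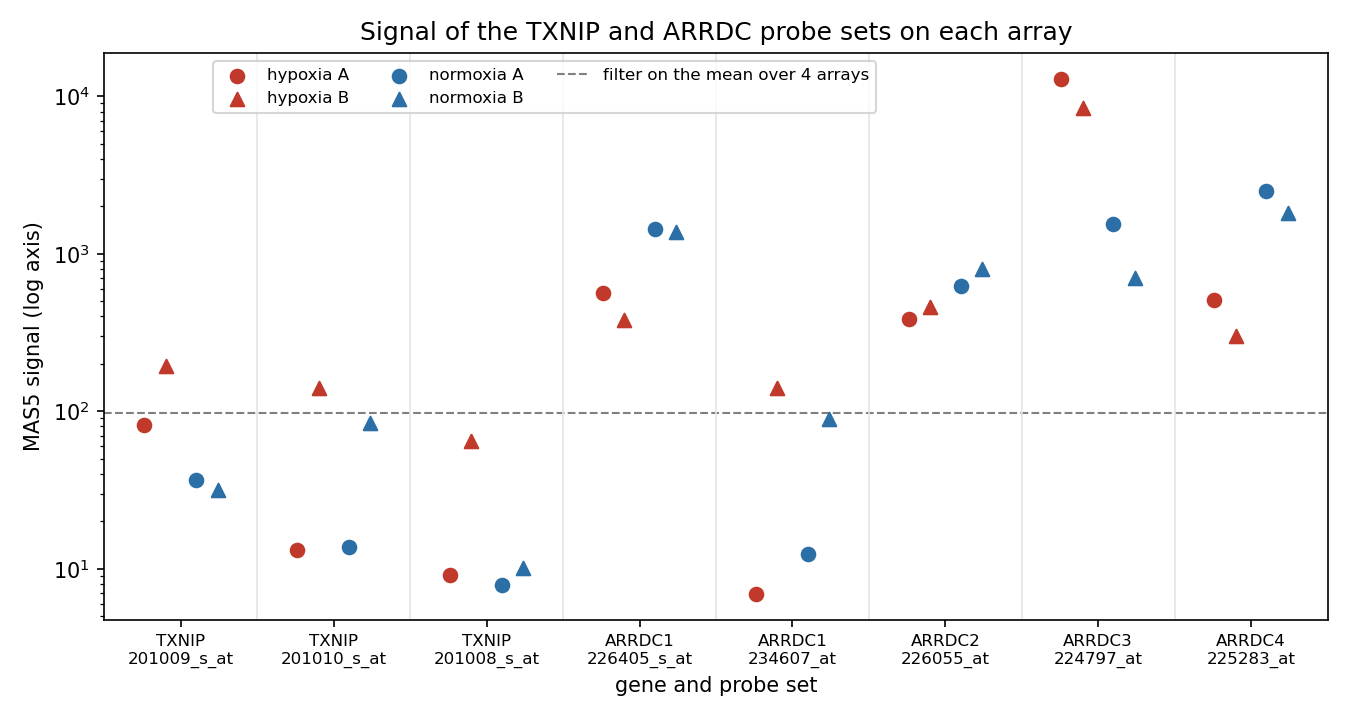
MAS5 signal on a log axis for each of the 8 probe sets, with hypoxia arrays in red left of normoxia arrays in blue, circles for A and triangles for B, and a dashed line at the filter of 97.4 that the mean over 4 arrays had to reach. ARRDC3 lies at 8377 and above in hypoxia against 1554 and below in normoxia, ARRDC4 and the stronger ARRDC1 probe set are lower in hypoxia, and the 3 TXNIP probe sets all stay at or below 194.

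In RNA from whole cultures, a change in the share of cells that express a gene and a change in RNA per cell cannot be told apart. Each array had been scaled to the same trimmed mean of 500.1, so directions are relative to the other genes on the array. All 7 tested genes of a hypoxia check list rose, among them ANKRD37 by 5.02 and NDRG1 by 4.02 in log2 difference. The epithelial markers EPCAM, CDH1, KRT8, KRT18 and KRT19 each gave signals of at least 4913 on all 4 arrays, whereas the intestinal markers CDX1, CDX2 and VIL1 stayed at or below 217. The summed signal of 8 epithelial markers was 107817 to 115317 in hypoxia against 74055 to 87779 in normoxia. That of 9 markers of blood, fibroblast and endothelial cells was 2350 to 2887 in hypoxia against 739 to 1314 in normoxia. COL1A1 made up most of it in hypoxia (1752 and 2162, against 545 and 595 in normoxia). Other tested COL1A1 probe sets, at log2 differences from 0.32 to 0.91, were not called. No marker was at 0. In hypoxia, however, every marker of this list except COL1A1 lay within background, under the highest Bacillus (bacterial RNA) control of its array. That control was 305 and 226 in hypoxia A and B, against 45.7 and 121 in normoxia A and B. The 3′ to 5′ signal ratio of actin, a measure of RNA integrity, was 1.66 and 1.77 in hypoxia against 1.26 and 1.28 in normoxia, and that of GAPDH was 0.91 and 0.95 in hypoxia against 0.92 and 1.00 in normoxia. The part of these shifts in the results below was not tested.

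ARRDC3 encodes an adaptor known for the ubiquitination of the beta-2 adrenergic receptor and the down-regulation of integrin beta 4. The gene lies on chromosome 5 from position 91368631 to 91383317 (GRCh38.p14, RefSeq). Its single probe set, 224797_at, gave 12911 and 8377 in hypoxia A and B, against 1554 and 706 in normoxia A and B. Both hypoxia arrays lay above both normoxia arrays, a separation in either direction that 68.5% of tested probe sets had. The mean was 10644 ± 3206 in hypoxia and 1130 ± 599 in normoxia (SD, n = 2 each). The log2 difference was 3.28 ± 0.34 (SE; 95% interval 2.51 to 4.05; adjusted p = 2.30e-04). The A arrays differed by 3.04 and the B arrays by 3.52. ARRDC3 stood at rank 33 from the top among 12636 tested genes, each taken by its probe set of highest mean. On its own array the probe set lay at the percentiles 98.7 and 97.9 in hypoxia, against 88.8 and 80.5 in normoxia.

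The antisense neighbour ARRDC3-AS1 is no member and was looked up after the values were seen. Its probe set gave 182 and 242 in hypoxia against 67.8 and 107 in normoxia, a log2 difference of 1.10 ± 0.60 (SE) that did not pass (adjusted p = 0.195). The probe set of ARRDC1-AS1 gave 39.3 and 162 in hypoxia against 92.1 and 16.4 in normoxia, with overlapping groups, and was too weak to be tested.

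ARRDC4, which has been linked to glucose transporter traffic like TXNIP, lies on chromosome 15 from position 97960703 to 97973833. Probe set 225283_at gave 510 and 302 in hypoxia A and B, against 2503 and 1807 in normoxia A and B. Both hypoxia values were below both normoxia values. The mean was 406 ± 147 in hypoxia and 2155 ± 492 in normoxia (SD, n = 2 each), and the log2 difference was -2.37 ± 0.29 (SE; 95% interval -3.03 to -1.70; adjusted p = 5.35e-04). The A arrays differed by -2.24 and the B arrays by -2.49. Counted from the lowest log2 difference, ARRDC4 stood at rank 391 of 12636 genes. Both hypoxia values lay above the highest Bacillus control of their arrays (305 and 226), probe sets for bacterial RNAs that serve here as a measure of background.

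ARRDC1 encodes an adaptor at the plasma membrane that recruits TSG101 and drives the budding of small vesicles. The gene lies on chromosome 9 from position 137605686 to 137615360. Its stronger probe set, 226405_s_at, gave 562 and 379 in hypoxia A and B, against 1429 and 1382 in normoxia A and B. The normoxia arrays lay close together and both hypoxia arrays were below them, with means of 471 ± 130 in hypoxia and 1406 ± 32.7 in normoxia (SD, n = 2 each). The log2 difference was -1.56 ± 0.26 (SE; 95% interval -2.14 to -0.97; adjusted p = 0.00222), and ARRDC1 stood at rank 1265 from the lowest among tested genes. The second probe set, 234607_at, gave 6.90 and 140 in hypoxia A and B, against 12.5 and 88.6 in normoxia A and B. There the groups overlapped, both B arrays were brighter than both A arrays, every value lay under the highest Bacillus control of its array, and the mean of 61.9 was below the filter. Its log2 difference was 0.15.

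ARRDC2, a further adaptor of the family, lies on chromosome 19 from position 18001124 to 18014102. Probe set 226055_at gave 387 and 460 in hypoxia A and B, against 623 and 806 in normoxia A and B. The groups did not overlap, yet the log2 difference of -0.72 ± 0.28 (SE; 95% interval -1.36 to -0.07) was not called (adjusted p = 0.0859). Over the 13 alternatives the log2 difference ranged from -2.11 to -0.54. It passed when scaled to the hybridization controls (-2.11, adjusted p = 0.0103). Leaving out hypoxia B, which left 1 hypoxia array, put it at -0.83.

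TXNIP lies on chromosome 1 from position 145992435 to 145996579, and its 3 probe sets all fell short of the filter, with means over the 4 arrays of 86.0, 62.7 and 22.9. Probe set 201009_s_at gave 82.1 and 194 in hypoxia A and B, against 36.5 and 31.8 in normoxia A and B. Probe set 201010_s_at gave 13.2 and 140 in hypoxia A and B, against 13.7 and 83.9 in normoxia A and B. The third, 201008_s_at, gave 9.10 and 64.7 in hypoxia A and B, against 7.84 and 10.0 in normoxia A and B.

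Only the first of these separated the groups, with both hypoxia values higher, as 54.0% of all probe sets did in either direction, and in all 3 hypoxia B was the brightest array. All 12 TXNIP values lay under the highest Bacillus control of their own array, which was 305 and 226 in hypoxia A and B, against 45.7 and 121 in normoxia A and B. When every probe set was admitted to the fit, 13.6% of 54613 were called, none of the 3 TXNIP probe sets among them: their log2 differences were 1.39, 0.29 and 0.72, with adjusted p = 0.380, adjusted p = 0.892 and adjusted p = 0.451. A change of TXNIP was therefore not measurable at this signal, and neither a rise nor a fall can be read from it. The suffix of all 3, which the called ARRDC1 probe set 226405_s_at shares, marks probe sets that match several transcripts.

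Promoters are shown for ARRDC3, the gene that rose, and for ARRDC4 and TXNIP, the known MondoA and ChREBP targets, to compare the letters before their start sites. The stretches are the 250 bases before the RefSeq gene start (GRCh38.p14), written 5′ to 3′ on the strand of the gene, with capitals where 1 of 5 motifs was found on either strand.
ARRDC3, chr5:91383318-91383567, minus strand: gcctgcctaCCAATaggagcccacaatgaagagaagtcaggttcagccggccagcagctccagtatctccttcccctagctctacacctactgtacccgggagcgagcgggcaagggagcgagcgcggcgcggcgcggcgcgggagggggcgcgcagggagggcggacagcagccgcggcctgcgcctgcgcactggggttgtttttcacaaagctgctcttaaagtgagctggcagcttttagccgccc
ARRDC4, chr15:97960453-97960702, plus strand: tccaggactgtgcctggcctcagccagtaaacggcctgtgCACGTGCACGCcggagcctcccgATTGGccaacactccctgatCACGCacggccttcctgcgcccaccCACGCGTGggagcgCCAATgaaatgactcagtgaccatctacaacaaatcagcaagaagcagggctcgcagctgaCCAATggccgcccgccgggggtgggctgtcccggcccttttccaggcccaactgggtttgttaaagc
TXNIP, chr1:145996580-145996829, minus strand: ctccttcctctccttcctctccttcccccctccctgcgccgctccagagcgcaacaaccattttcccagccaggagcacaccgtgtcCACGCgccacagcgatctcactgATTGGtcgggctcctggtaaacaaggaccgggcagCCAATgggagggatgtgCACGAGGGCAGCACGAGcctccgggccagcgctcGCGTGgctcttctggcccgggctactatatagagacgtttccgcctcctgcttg

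The first motif was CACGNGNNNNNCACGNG, which is 2 boxes with 5 bases between them, an arrangement known from elements that MondoA and ChREBP bind with MLX. The others were the E-box, spelled CACGTG, the CCAAT box, and the core of hypoxia response elements in its A form, spelled ACGTG, or its G form, spelled GCGTG. The box pair was found in 0.0456% of 35116 promoter windows of 250 bases, and 1 of its 16 windows was that of TXNIP, where it began 88 bases before the start. The pattern follows known elements of these factors and TXNIP is a known target, so this match is no independent finding. The E-box was in 6.34% of windows and, among the 8 windows listed for the 5 genes, in that of ARRDC4 only. The spelling of the E-box contains the A form of the core on both strands. The A-form matches in the ARRDC4 window are therefore the E-box itself and no further sites. The A form was in 18.5% of windows, the G form in 32.2% and the CCAAT box in 32.0%. The ARRDC4 window held 4 matches to the G form and 3 to the CCAAT box, and the first TXNIP window held 2 to each. A second window listed for TXNIP held 1 match to the A form, outside any E-box, and none to the other motifs. Neither of the 2 windows listed for ARRDC3 held either form of the core, the E-box or the box pair, and the window of ARRDC1 held only a CCAAT box. The 2 windows of ARRDC2 held 2 matches to the G form each. A match is a description of letters, and its absence says only that these letters do not stand in this window.

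**Figure D2:**
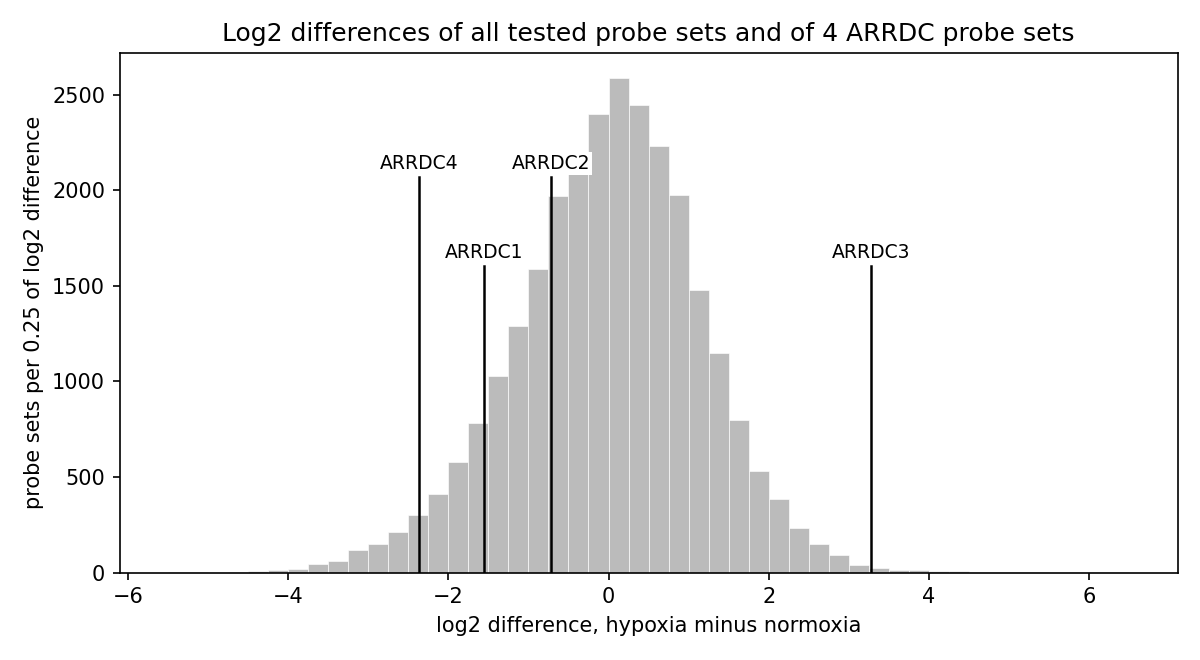
Number of probe sets per 0.25 of log2 difference (hypoxia minus normoxia) over all 27304 tested probe sets, with vertical lines at the 4 tested ARRDC probe sets. ARRDC3 at 3.28 lies beyond the 99th percentile of 2.64, while ARRDC4 at -2.37, ARRDC1 at -1.56 and ARRDC2 at -0.72 lie in the lower part of the distribution, above the 1st percentile of -3.00.

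ARRDC3 was higher and ARRDC4 lower in hypoxia, both past the test, under quantile normalization, scaling to the 75th percentile and scaling to the hybridization controls. The hybridization controls, labelled bacterial and phage transcripts added to the hybridization mix, differed within normoxia as well. Their geometric mean was 9869 and 8594 in hypoxia A and B, against 2444 and 4595 in normoxia A and B. Scaled to them, the SE of the fit was larger, for ARRDC3 0.67 against 0.34 as reported. The genes also shifted down as a whole under this scaling, with a median log2 difference of -1.30 over tested probe sets. There ARRDC3 was at 1.83 (adjusted p = 0.0202) and ARRDC4 at -3.77 (adjusted p = 6.08e-06), which were 3.13 and -2.47 relative to that median. ARRDC1 was at -2.96, or -1.66 relative to the median, and ARRDC2 at -2.11, or -0.81 relative to the median, and passed there (adjusted p = 0.0103).

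**Figure D3:**
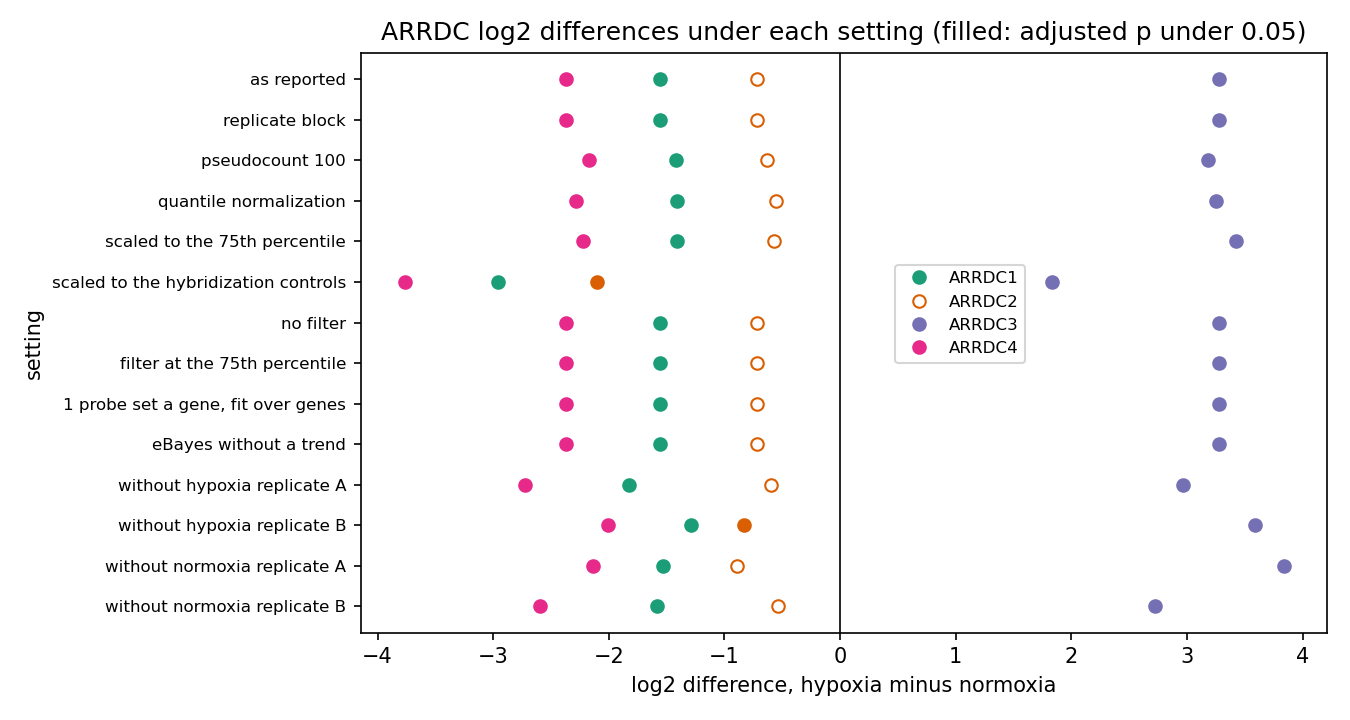
Log2 difference (hypoxia minus normoxia) of ARRDC1, ARRDC2, ARRDC3 and ARRDC4 under the reported setting and 13 alternatives, with filled points where the adjusted p was under 0.05. Settings that leave out an array keep 1 array in its group, so their fill rests on the spread of the other group. ARRDC3 ranges from 1.83 to 3.84, ARRDC4 from -3.77 to -2.01 and ARRDC1 from -2.96 to -1.29, all filled, while ARRDC2 is filled under 2 settings.

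Genes with the most similar profiles were sought by the distance between log2 values over the 4 arrays, each centred on its own mean, which with so few arrays mainly matches the size of the oxygen difference. Nearest to ARRDC3 were BEAN1 (distance 0.30), which was weak in normoxia (479 and 415 in hypoxia against 48.1 and 8.80 in normoxia), P4HA1, which encodes a collagen prolyl hydroxylase subunit (0.58), and ACSS2, an acetyl-CoA synthetase gene (0.58). P4HA1 gave 26934 and 22438 in hypoxia against 3963 and 2637 in normoxia, and ACSS2 gave 7794 and 4732 in hypoxia against 624 and 501 in normoxia. Nearest to ARRDC4 were FDXACB1 (0.04), FIRRM (0.05) and the kinetochore gene ZWINT (0.21), of which FDXACB1 was not called (adjusted p = 0.0522). ZWINT gave 1061 and 767 in hypoxia against 5550 and 4411 in normoxia. FDXACB1 and FIRRM were weak in hypoxia, at 71.0 or below and under the highest Bacillus control of each array, so their distances rest on values near background. FIRRM did not pass when normoxia A (adjusted p = 0.340) or normoxia B was left out (adjusted p = 0.142).

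Nearest to ARRDC1 were TIMM21, a gene of mitochondrial protein import (0.06), BCDIN3D (0.07) and SMIM10L1 (0.07), all called lower. BCDIN3D was likewise under the highest Bacillus control on both hypoxia arrays, and did not pass when normoxia A (adjusted p = 0.0735) or normoxia B was left out (adjusted p = 0.0609). Nearest to ARRDC2 were the small GTPase gene ARL2 (0.06), GBGT1 (0.07) and ADPGK, an ADP-dependent glucokinase gene (0.07). ARL2 and ADPGK were called lower, at log2 differences of -0.75 and -0.79 (adjusted p = 0.0336 and adjusted p = 0.0291), while GBGT1, at -0.78, was not (adjusted p = 0.384). GBGT1 gave 78.8 and 92.4 in hypoxia, under the highest Bacillus control of each array, so its distance rests on values near background. Without either normoxia array neither ARL2 nor ADPGK passed (adjusted p = 0.132 to adjusted p = 0.404).

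Related genes were read from the same fit, 1 probe set a gene. Of all 12636 genes tested in this way, 36.3% were called, 14.5% higher and 21.7% lower, and their median log2 difference was -0.03. The mRNA levels of the factors that act on TXNIP and ARRDC4 did not differ detectably. Of MLXIP (MondoA), MLXIPL (ChREBP) and MLX, 0 of 3 were called by limma, and none had an unadjusted p under 0.05. MLXIP gave 970 and 950 in hypoxia against 956 and 1065 in normoxia (log2 difference -0.07; 95% interval -0.56 to 0.41), and MLX gave 2604 and 2316 in hypoxia against 2443 and 2784 in normoxia (-0.09; 95% interval -0.49 to 0.32). MLXIPL gave 474 and 199 in hypoxia against 310 and 293 in normoxia (0.03), with a wide 95% interval of -0.98 to 1.05. Another tested MLXIP probe set was at -0.04 without a call, while others too weak to be tested were at 2.19 and 1.49.

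Of 5 tested genes known as targets of these factors besides the members, 3 rose, 0 fell and 2 were not called, with a median log2 difference of 1.46. HK2, the hexokinase gene, gave 18007 and 12527 in hypoxia against 1774 and 1650 in normoxia (log2 difference 3.12 ± 0.20 SE), and a weak second probe set that passed the filter was at -1.33 without a call. FASN, the fatty acid synthase gene, rose by 1.70 and PFKFB3, whose product makes an activator of phosphofructokinase, by 1.46 in log2 difference. Both lost their call when scaled to the hybridization controls (0.25 and 0.02), where they lay 1.55 and 1.32 above the median. KLF10, a transcription factor gene named outside the rule, was at -0.31 without a call (6832 and 6697 in hypoxia against 8280 and 8525 in normoxia). It was called lower with quantile normalization (-0.47, adjusted p = 0.0193) and when scaled to the hybridization controls (-1.77, adjusted p = 0.0100). ARRDC4 fell, HK2, FASN and PFKFB3 rose, and KLF10 and ACACA (log2 difference 0.26) were not called. The 3 genes that rose have other known regulators as well, and the cause of the difference was not tested.

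Of 8 tested genes of the thioredoxin system, which TXNIP acts on, 2 rose, 3 fell and 3 were not called, with a median log2 difference of -0.17. TXNRD1, the cytosolic thioredoxin reductase gene, gave 17222 and 16346 in hypoxia against 7893 and 8205 in normoxia (log2 difference 1.06 ± 0.17 SE, adjusted p = 0.00168), though it was at -0.40 when scaled to the hybridization controls, or 0.90 above the median there. The peroxiredoxin genes PRDX2 and PRDX3 fell, at log2 differences of -1.59 and -1.21, and the mitochondrial thioredoxin gene TXN2 fell at -1.13, a call that did not hold when normoxia B was left out (adjusted p = 0.0763). A second strong probe set of PRDX2 was also called lower, at -2.67 (787 and 728 in hypoxia against 5404 and 4532 in normoxia), while weaker ones were at 0.97 and 0.25 without a call. The other tested probe sets of PRDX3 (-0.47) and TXN2 (-0.74) were not called. TXN, the gene of the cytosolic thioredoxin that TXNIP binds, was at -0.33 and not called (12498 and 11135 in hypoxia against 14538 and 15223 in normoxia, adjusted p = 0.171), and was named outside the rule. TXN was called lower with quantile normalization (-0.71, adjusted p = 0.00285) and when scaled to the hybridization controls (-1.79, adjusted p = 0.00303).

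Of 10 tested genes of NEDD4-family ligases and their adaptors, the enzymes alpha-arrestins recruit, 5 rose, 1 fell and 4 were not called, with a median log2 difference of 0.77. SMURF1 rose by 1.12, NEDD4L by 1.12 and SMURF2 by 1.03 in log2 difference. Scaled to the hybridization controls the 3 were at -0.32, -0.32 and -0.42, each 0.87 to 0.98 above the median there, and 0 genes of the list were called higher and 3 lower. Other probe sets of these genes mostly did not pass. Those of SMURF1 ranged from 0.21 to 1.00 and those of NEDD4L were at -0.77 and -0.71, all without a call. Of SMURF2, 1 other probe set was called higher (1.31), whereas 2 others were not (0.34 and 0.13), among them one with signals of 6845 and 5711 in hypoxia against 4648 and 5212 in normoxia. WWP2 gave 42.8 and 10.0 in hypoxia against 715 and 432 in normoxia and was the 1 gene of the list called lower (adjusted p = 0.00282). Both hypoxia values lay under the highest Bacillus control of their arrays, so it passed the filter through normoxia alone and the size has only a bound: with that control in place of the hypoxia values, WWP2 was at least 2.02-fold lower. Its call did not hold when normoxia A was left out (adjusted p = 0.193), and 2 other tested WWP2 probe sets were not called, at 0.34 and -0.15. ITCH, the ligase known to target TXNIP for degradation and named outside the rule, gave 2725 and 2543 in hypoxia against 1757 and 1524 in normoxia (log2 difference 0.68, adjusted p = 0.0212). It did not pass when normoxia A was left out (adjusted p = 0.135) or normoxia B (adjusted p = 0.276), and it was at -0.76 when scaled to the hybridization controls, 0.53 above the median.

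Of 7 tested genes of cargo and partners of alpha-arrestins, 3 rose, 1 fell and 3 were not called, with a median log2 difference of 0.64. SLC2A1, the gene of the glucose transporter GLUT1 that TXNIP restrains, gave 4261 and 4105 in hypoxia against 999 and 950 in normoxia. DDIT4, whose product REDD1 forms a complex with TXNIP, gave 37041 and 26945 in hypoxia against 7375 and 8129 in normoxia. SLC2A1 rose by 2.08 (adjusted p = 1.10e-04) and DDIT4 by 2.03 (adjusted p = 2.01e-04) in log2 difference. INSR, the insulin receptor gene, rose by 1.42 (adjusted p = 0.00152), with other tested probe sets between 0.28 and 0.89. Scaled to the hybridization controls none of the 3 passed, at 0.63, 0.57 and -0.01, or 1.93, 1.87 and 1.29 above the median there. SLC11A2, the gene of the iron transporter DMT1 that ARRDC1 and ARRDC4 help to ubiquitinate, fell at -1.26 (585 and 486 in hypoxia against 1226 and 1394 in normoxia), and its call did not hold when normoxia B was left out (adjusted p = 0.0913). Of its other tested probe sets, 1 was called lower (-1.36) and 2 were not called (-0.13 and 1.76). The ARRDC1 partner TSG101 and the ARRDC3 cargo ITGB4 were not called, at -0.36 and 0.34.

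Of 5 tested genes of other proteins with an arrestin fold, 2 rose, 1 fell and 2 were not called. The beta-arrestin gene ARRB1 gave 661 and 1062 in hypoxia against 383 and 311 in normoxia (log2 difference 1.22, adjusted p = 0.0176), and it did not pass when normoxia A was left out (adjusted p = 0.0615) or normoxia B (adjusted p = 0.141), while other tested probe sets of ARRB1 ranged from -1.14 to 1.13. VPS26C, an endosomal sorting gene, rose by 1.35. VPS26A, a retromer subunit gene, fell at -0.66 and did not pass when normoxia A was left out (adjusted p = 0.0914) or normoxia B (adjusted p = 0.0785). Scaled to the hybridization controls, ARRB1 was at -0.18 and VPS26C at -0.09, or 1.12 and 1.21 above the median there.

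**Figure D4:**
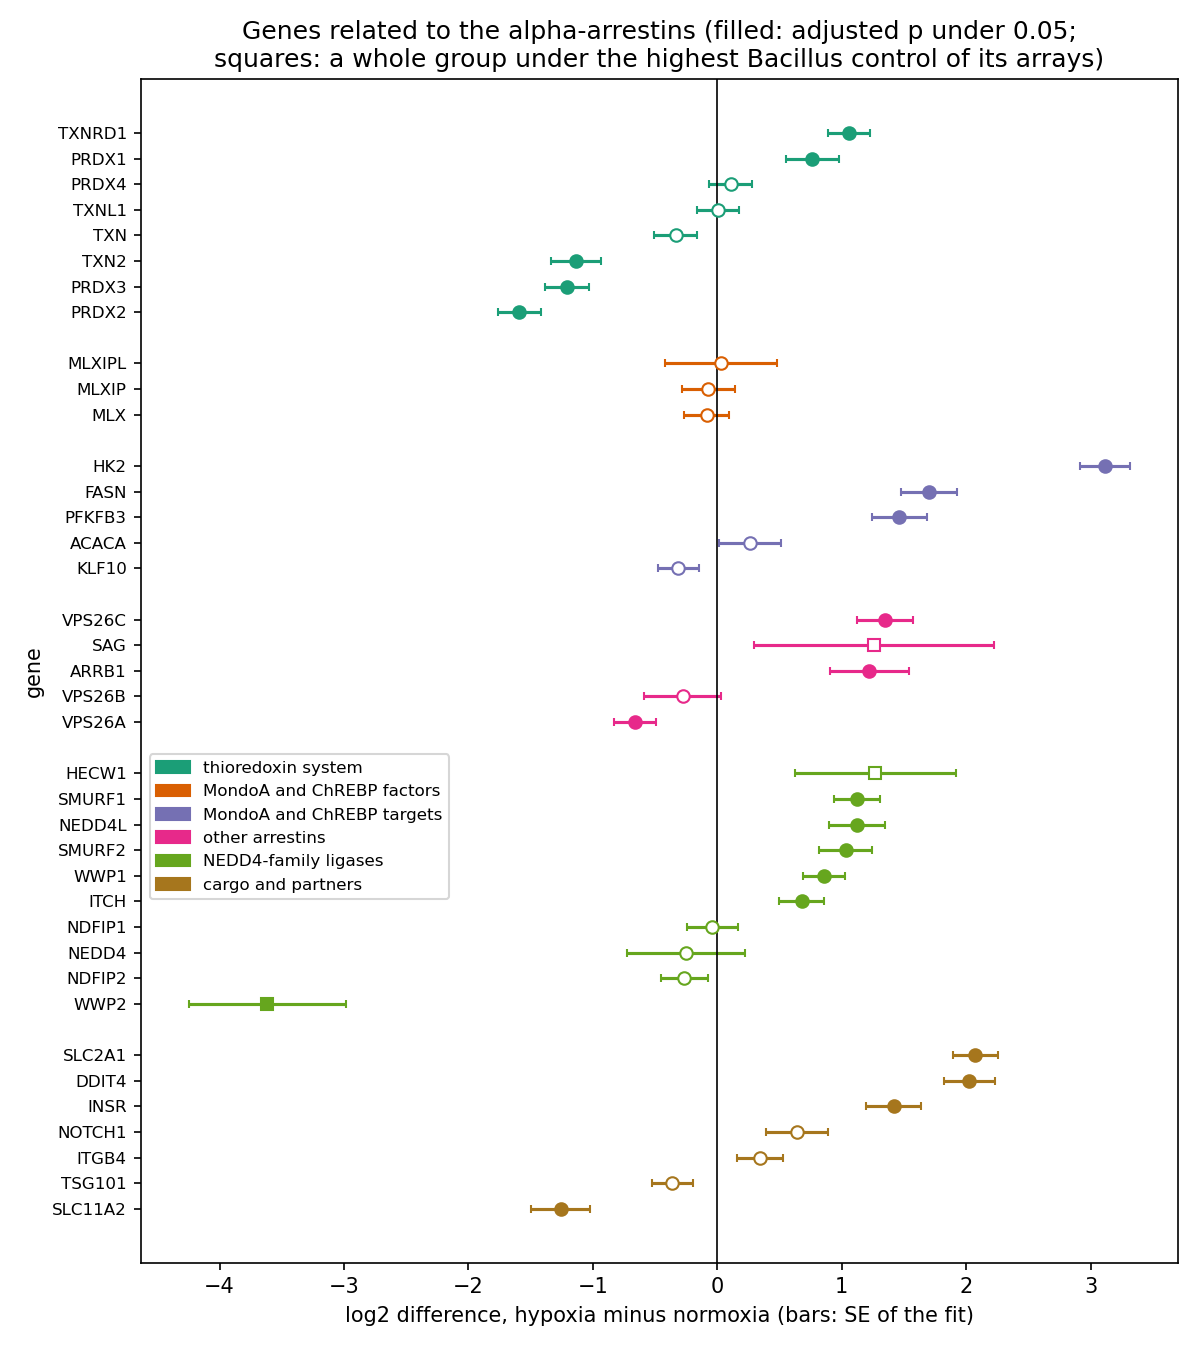
Log2 difference (hypoxia minus normoxia) with the SE of the fit for each tested gene of the 6 related lists, coloured by list and filled where the adjusted p was under 0.05, with squares for genes that had a whole group under the highest Bacillus control of its arrays. The MondoA and ChREBP factors lie between -0.09 and 0.03, their targets reach 3.12 with HK2, and the square of WWP2 shows a direction only, since its hypoxia signals of 42.8 and 10.0 were near background.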

How the data were processed

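The deposited values are intensities, 1 linear signal per probe set and array, computed in MAS5 (per the submitters' processing notes); version, scaling target and detection calls are not given in the sources used here. Per the labels' protocols, 6 µg of RNA was used for each biotin-labelled cRNA. Each array had the same mean without its lowest and highest 2%, which hides any common shift. The number of arrays limits the precision. Probe sets were named through the platform annotation table and current symbols taken from RefSeq (GRCh38.p14). Log2(signal + 23.7), 23.7 being the 25th percentile of all values, was fitted with limma 3.58.1 in R 4.3.3 (lmFit, eBayes with trend, two-sided, Benjamini-Hochberg over 27304 non-control probe sets with a mean at or above 97.4). The fit was tested on simulated data. Figures used Python 3.11.15 and matplotlib 3.10.9. Promoter sequences are RefSeq's. The genes, lists and naming rule (of each list up to 4 called genes with the largest change, otherwise up to 2 with the smallest p; the 3 nearest profiles per gene) were chosen with earlier results of these data known. Listed genes without a probe set of their own were not analysed here. Alternatives were a replicate block, pseudocount, normalization, filter, 1 probe set a gene, no trend and leaving out each array. Leaving out an array kept 1 array in its group, so those p-values rest on the spread of the other group alone.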

Additional observations from a re-analysis of the deposited data

How the results depend on the processing

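ARRDC1, ARRDC3 and ARRDC4 kept their direction under all 13 alternatives, and their call under each that kept 2 arrays per group. In limma without an intensity trend these calls passed only narrowly (adjusted p = 0.0448 for ARRDC1, adjusted p = 0.0364 for ARRDC3 and adjusted p = 0.0373 for ARRDC4). ARRDC2 kept its direction under all 13 and passed when scaled to the hybridization controls. With 1 array left out, calls rest on the spread of 1 group only. With the replicate block 10115 probe sets were called against 8406, the 3 ARRDC calls and the count of 21 called related genes (15 higher, 6 lower) did not move, and the A minus B differences of the groups had a correlation of 0.06 over probe sets; whether a letter pairs the groups is not given in the labels. The count of all called probe sets was 4803 with 1 probe set a gene (fewer features were tested), 3824 without an intensity trend, and from 4322 (without normoxia A) to 11785 (without hypoxia A) when 1 array was left out. Without a trend 10 related genes were called, and PRDX3, TXN2, TXNRD1, VPS26C, ARRB1, VPS26A, NEDD4L, SMURF2 and ITCH were among those no longer called; the cause was not tested. VPS26A (adjusted p = 0.0504), ARL2 and ADPGK were not called when scaled to the 75th percentile. ARL2 and ADPGK also lost their call with quantile normalization (adjusted p = 0.111 and adjusted p = 0.0952). The same held without a trend (adjusted p = 0.114 for ARL2 and adjusted p = 0.117 for ADPGK). More probe sets were called lower than higher as reported, but not when scaled to the 75th percentile or without normoxia A (2279 higher, 2043 lower) or normoxia B (2267 higher, 2214 lower). Scaled to the hybridization controls the signs turned for TXNRD1 (-0.40), VPS26C (-0.092), ARRB1 (-0.18), SMURF1 (-0.32), NEDD4L (-0.32), SMURF2 (-0.42), ITCH (-0.76), INSR (-0.0055) and ARRDC3-AS1 (-0.13). Uncalled differences near 0 turned for MLX (0.061 scaled to the 75th percentile, and -0.18 to 0.0073 with 1 array left out) and MLXIP (0.10 with quantile normalization, 0.075 scaled to the 75th percentile, and -0.15 to 0.0060 with 1 array left out). Signal over background limits TXNIP, the second ARRDC1 probe set and, in hypoxia, WWP2, FDXACB1, FIRRM, BCDIN3D and GBGT1. FDXACB1 passed under several alternatives, such as a pseudocount of 100 (adjusted p = 0.0370), and GBGT1 when scaled to the hybridization controls (adjusted p = 0.0450).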
